A study of Mus musculus with 32 samples.

Results

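Genes of the actin cytoskeleton and of focal adhesions were followed through the epidermis of 32 hairless mice. They are Palld, Actn1, Actn4, Myh9, Tpm1, Tpm2, Tpm4, Vcl, Zyx and Flna, 10 of the 55401 genes in the count tables, matched by symbol. The genes were selected on earlier results of these data, with the UV response and the genotypes in view, so their UV and genotype differences are described below without a test. The selection rule names genotype and treatment but not sex, so sex differences were taken as independent of it and tested; which readout first brought the genes forward is not recorded. Each library was the epidermis of 1 mouse aged 10 to 14 weeks on the SKH-1/SV129/BL6/J hairless background, either wild-type (WT) or labelled Ppard-/- (KO), which marks loss of PPARβ/δ, a nuclear receptor for fatty acids. Males and females of each genotype were exposed to UV at 120 mJ/cm² and sampled 24 h later, or were sham-handled controls, which gave 8 groups of 4 mice. All mice, controls included, carried the hairless background.

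Actin filaments are cross-linked, decorated and pulled on by a small set of abundant proteins. α-Actinins and filamins tie filaments into bundles and networks, tropomyosins wrap along them and set which partners can bind, and non-muscle myosin II pulls on them. At focal adhesions, where integrins hold the extracellular matrix, vinculin, zyxin and palladin join the filaments to the adhesion plaque. In keratinocytes these structures are known for their part in spreading, migration and wound closure, and many of the genes are known targets of serum response factor (SRF) and of YAP-TEAD.

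All 10 genes passed the filter of at least 1 cpm, reads of a gene scaled to a common library size, in at least 1 mouse, which left 15546 genes. Reads assigned to genes ran from 22919428 to 40653581 per mouse. Ppard itself gave 87.3 to 105 cpm in WT controls and 70.3 to 88.9 cpm in KO controls, and 252 to 326 cpm against 175 to 239 cpm after UV. Ppard reads were thus still counted over the gene as a whole in KO mice, at 0.836-fold of WT without UV and 0.745-fold after it (adjusted p = 0.156 and 0.00114, edgeR). Gene totals do not resolve which exons were deleted, so they do not settle the genotype labels. The keratinocyte markers were present in every library, but some libraries also held RNA of skeletal muscle. The 18 skeletal muscle markers summed to between 9.77 and 5848 cpm, and 9 of the 32 mice reached 1000 cpm: 2 KO female controls (44F and 60F), 2 WT female controls (63F and 71F), 2 KO females (52F and 54F) and 1 KO male (58M) after UV, and 1 WT female (59F) and 1 WT male (38M) after UV. Mouse 54F also summed to 2412 cpm over the 12 dermal fibroblast markers, against 24.0 to 40.5 cpm in WT mice after UV. Results for Tpm1, Tpm2 and Palld, and several others, are also given without these libraries.

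Promoter sequences are shown first for the genes whose start regions hold a motif of a factor tied to actin genes, because the genes were higher together after UV. They come from the RefSeq promoter table for GRCm38.p6, which holds 250 bases before to 50 bases after each start and matched all 10 genes with 12 promoters. Capitals mark the motif, and both strands were searched. The first line holds the CArG box, the site read by SRF. It was found in 1 of the 10 genes (Vcl), 1 of their 12 promoters, and in 1.63% of all 32851 promoters. The promoter of Srf itself, printed for comparison, held 2 of them.
Vcl, chr14:20929151-20929200, plus strand: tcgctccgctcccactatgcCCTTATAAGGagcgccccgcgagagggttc
Srf, chr17:46556195-46556244, minus strand: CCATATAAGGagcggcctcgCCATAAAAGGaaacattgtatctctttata
The letters GGAATG (or CATTCC on the other strand), which TEAD factors read, lay in a promoter of 5 of the 10 genes (Palld, Actn4, Tpm1, Vcl and Flna). These were 5 of the 12 promoters, against 14.7% of all promoters. The Tpm1, Palld and Flna matches are shown as the tropomyosin, a plaque protein and the filamin among these genes.
Tpm1, chr9:67049244-67049289, minus strand: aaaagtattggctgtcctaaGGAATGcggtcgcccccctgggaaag
Palld, chr8:61760151-61760196, minus strand: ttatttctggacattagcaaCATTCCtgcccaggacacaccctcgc
Flna, chrX:74246655-74246700, minus strand: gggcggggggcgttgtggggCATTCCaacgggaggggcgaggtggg
The AP-1 letters TGANTCA were found in a promoter of 3 of the 10 genes (Palld, Actn4 and Zyx). These were 3 of the 12 promoters, against 7.81% of all promoters. Zyx and Palld are printed because they showed the widest differences after UV, and the Palld match lies in another of its 3 promoters than the match above.
Zyx, chr6:42349687-42349733, plus strand: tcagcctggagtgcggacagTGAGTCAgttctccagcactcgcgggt
Palld, chr8:61591167-61591213, minus strand: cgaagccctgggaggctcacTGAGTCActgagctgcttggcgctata
The motifs do not share a base in these windows. A match describes these letters only, and the counts of 10 genes are too few to read against the shares of all promoters.

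Of the plaque genes, Zyx and Palld differed widely between UV and control mice and Vcl little. Zyx encodes zyxin, a LIM protein that gathers at adhesions under tension (chr6:42349630-42360213, plus strand, GRCm38). In WT mice it ran from 9.61 to 21.3 cpm in controls (median 15.8, n = 8) and from 55.9 to 111 cpm after UV (median 73.2, n = 8). In KO mice the values were 9.95 to 17.0 cpm (median 12.9) and 64.1 to 109 cpm (median 86.9). The groups did not overlap in either genotype, and the level after UV was 4.83-fold that of controls in WT (log2 fold change 2.27 ± 0.14, SE) and 6.64-fold in KO mice (2.73 ± 0.15).

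Palld encodes palladin, a scaffold that binds α-actinin and filaments (chr8:61511433-61902690, minus strand). WT controls lay between 17.6 and 53.1 cpm (median 36.7) and WT mice after UV between 132 and 178 cpm (median 159). KO controls lay between 19.6 and 39.8 cpm (median 26.7) and KO mice after UV between 134 and 169 cpm (median 153). Again no exposed mouse reached down to a control, with folds of 4.50 in WT (2.17 ± 0.15) and 5.52 in KO mice (2.46 ± 0.15). Without mouse 54F the KO fold was 5.69. In the 23 mice under 1000 cpm of muscle markers the folds were 4.00 in WT (2.00 ± 0.19) and 5.88 in KO mice (2.56 ± 0.20). The controls were the more variable side: among WT control males, 56M and 54M stood at 17.6 and 18.5 cpm, while 69M reached 44.8 cpm. The same mice were low and high for Zyx, with 54M at 9.61 cpm and 69M at 20.5 cpm.

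Vcl encodes vinculin, the link between talin and actin at adhesions (chr14:20929398-21033676, plus strand). It differed far less than its plaque partners. WT values were 126 to 180 cpm in controls (median 142) and 174 to 226 cpm after UV (median 212), and KO values were 115 to 188 cpm (median 152) and 154 to 231 cpm (median 201). The groups overlapped in both genotypes, with folds of 1.45 in WT (0.53 ± 0.09) and 1.27 in KO mice (0.35 ± 0.09). Vcl shares 2090 exon bases with Ap3m1 on the opposite strand, Actn4 316 with Capn12 and Zyx 236 with Epha1. Actn1 shares 363 with the antisense gene Gm47766 and 88 with Gm47767, and Tpm4 134 with Gm26586. Whether the counting used strand is not given in the sources used here.

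Filament crosslinkers split into a filamin that differed widely and α-actinins that differed less, Actn4 least. Flna encodes filamin A, which joins filaments into orthogonal networks and binds integrin tails (chrX:74223461-74249820, minus strand). WT controls ran from 159 to 289 cpm (median 266) and WT mice after UV from 756 to 1124 cpm (median 863). KO mice ran from 146 to 272 cpm (median 200) and from 632 to 1044 cpm (median 924). Exposed and control mice were far apart in both genotypes, at 3.69-fold in WT (1.89 ± 0.11) and 4.56-fold in KO mice (2.19 ± 0.11).

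Actn1 and Actn4 encode the non-muscle α-actinins, of which Actn4 was the more abundant. Actn1 (chr12:80167547-80260371, minus strand) stood at 96.8 to 151 cpm in WT controls (median 131) and 176 to 277 cpm after UV (median 218), and at 87.3 to 181 cpm and 160 to 292 cpm in KO mice (medians 131 and 214). WT groups did not overlap and KO groups did, with folds of 1.76 (0.82 ± 0.10) and 1.69 (0.75 ± 0.10). Actn4 (chr7:28893248-28962340, minus strand) differed least of the 10: 572 to 693 cpm against 672 to 907 cpm in WT mice (medians 614 and 815), and 592 to 756 cpm against 642 to 934 cpm in KO mice (medians 682 and 692). Its groups overlapped in both genotypes, and the folds were 1.30 (0.38 ± 0.07) and 1.10 (0.13 ± 0.07). Per kilobase of exon, Actn1 made up 18.5% ± 2.1 of the Actn1 and Actn4 level in WT controls and 23.5% ± 2.9 after UV (SD, n = 8), and 17.5% ± 3.0 and 24.7% ± 5.0 in KO mice.

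Myh9, the heavy chain of non-muscle myosin IIA (chr15:77760587-77842175, minus strand), was 325 to 408 cpm in WT controls and 686 to 926 cpm after UV (medians 365 and 760). In KO mice it was 299 to 439 cpm and 497 to 807 cpm (medians 371 and 767). Neither genotype showed an overlap, with folds of 2.12 (1.09 ± 0.08) in WT and 1.94 (0.96 ± 0.08) in KO mice. KO males made up the low end after UV, with 72M at 497 cpm and 58M at 581 cpm.

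**Figure D1:**
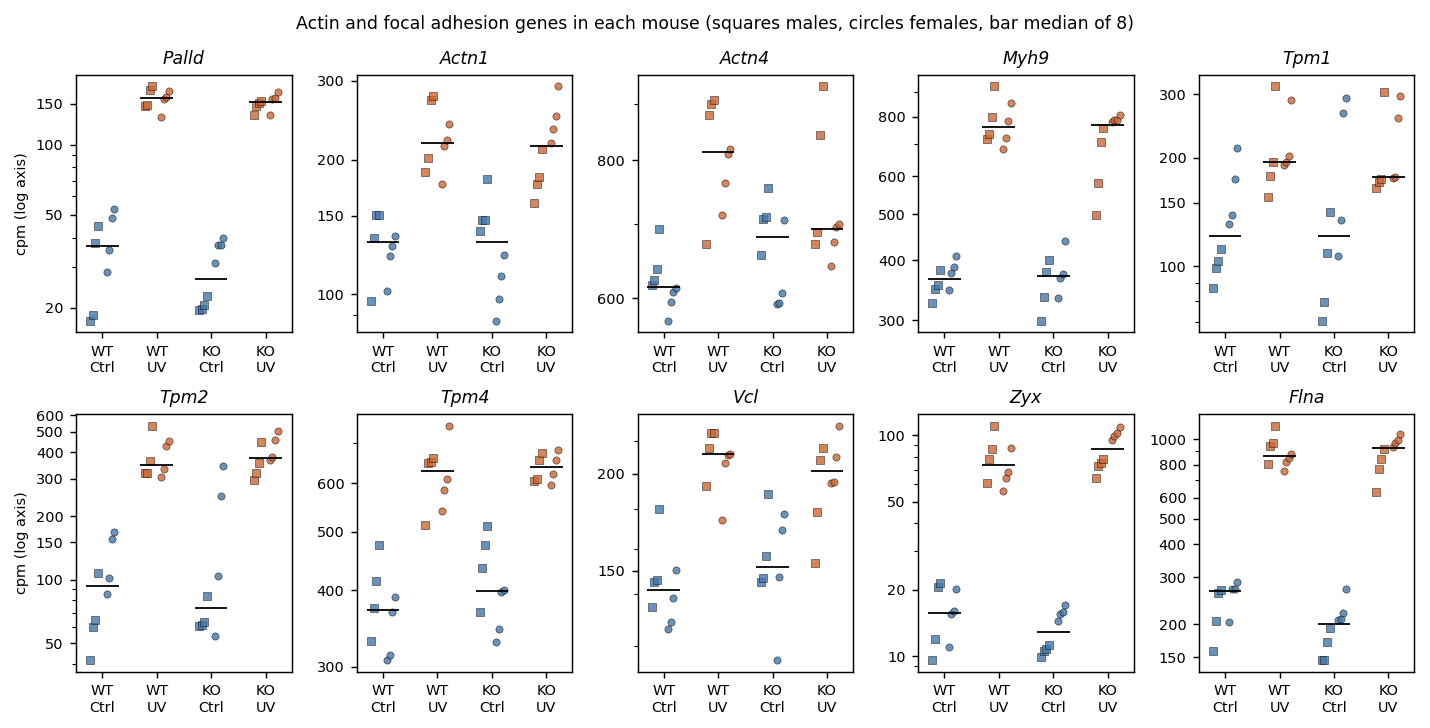
Level of each of the 10 genes in every mouse (y axis, cpm on a log axis with its own range per gene) by genotype and treatment (x axis). Squares are males, circles females and bars the median of 8 mice. Palld, Zyx, Flna, Myh9 and Tpm4 show no overlap between control and UV mice in either genotype, while Actn4, Vcl and Tpm1 overlap in both.

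The tropomyosin genes were read beside the muscle markers, because Tpm1 and Tpm2 are also sarcomere genes. Tpm4 (chr8:72134975-72153142, plus strand), a cytoskeletal tropomyosin, was 308 to 475 cpm in WT controls and 512 to 747 cpm after UV (medians 372 and 629), and 330 to 510 cpm and 597 to 680 cpm in KO mice (medians 399 and 638). Exposed and control mice stood apart in both genotypes, with folds of 1.67 (0.74 ± 0.08) and 1.57 (0.65 ± 0.08).

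Tpm2 encodes β-tropomyosin (chr4:43514711-43523765, minus strand). WT controls spanned 41.8 to 168 cpm (median 93.8) and WT mice after UV 305 to 536 cpm (median 348). KO controls spanned 54.4 to 347 cpm (median 73.4) and KO mice after UV 298 to 503 cpm (median 375). WT groups did not overlap, KO groups did, and the folds were 4.08 in WT (2.03 ± 0.26) and 3.47 in KO mice. The overlap in KO mice came from the control 60F at 347 cpm. The next highest KO control, 44F at 248 cpm, lay below every exposed KO mouse, and 60F and 44F had the highest muscle sums of all controls (5848 and 3860 cpm).

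Among mice with under 200 cpm of muscle markers, Tpm2 separated more sharply. The 5 such KO controls had 54.4 to 83.7 cpm and the 5 such KO mice after UV 298 to 382 cpm, at muscle sums of at most 190.2 cpm and 135 cpm. The 2 such WT controls, 54M and 56M, had 41.8 and 59.7 cpm, and the 6 such WT mice after UV had 305 to 428 cpm. Of the controls under 200 cpm only 62F was female, while the exposed mice included both sexes, so sex was not balanced there. In mice at or over 200 cpm Tpm2 was higher in each group: 64.8 to 168 cpm in 6 WT controls, 452 to 536 cpm in 2 WT mice after UV, 104 to 347 cpm in 3 KO controls and 450 to 503 cpm in 3 KO mice after UV. A fit of the 23 mice under 1000 cpm of muscle markers gave 4.36-fold in WT (2.12 ± 0.20) and 4.82-fold in KO mice (2.27 ± 0.21). The UV difference of Tpm2 was thus as large without the muscle-rich libraries.

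Tpm1 encodes α-tropomyosin (chr9:67022590-67049406, minus strand) and was high in the muscle-rich libraries of both treatments. WT controls lay between 86.9 and 212 cpm and WT mice after UV between 155 and 315 cpm (medians 121 and 195), and KO mice between 70.7 and 293 cpm and between 164 and 304 cpm (medians 121 and 176). Groups overlapped in both genotypes, and the folds were 1.67 (0.74 ± 0.20) and 1.52 (0.60 ± 0.20). The 5 highest Tpm1 values after UV, 258 to 315 cpm, belonged to the 5 exposed mice with muscle sums of 1000 cpm or more. With under 200 cpm of muscle markers, Tpm1 was 86.9 and 98.6 cpm in the 2 WT controls and 155 to 201 cpm in 6 WT mice after UV. It was 70.7 to 142 cpm in 5 KO controls and 164 to 177 cpm in 5 KO mice after UV. These subsets showed no overlap, but as for Tpm2 their controls were all male except 62F. Without the mice at 1000 cpm or more the folds were 1.62 (0.69 ± 0.13) and 1.59 (0.67 ± 0.14).

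**Figure D2:**
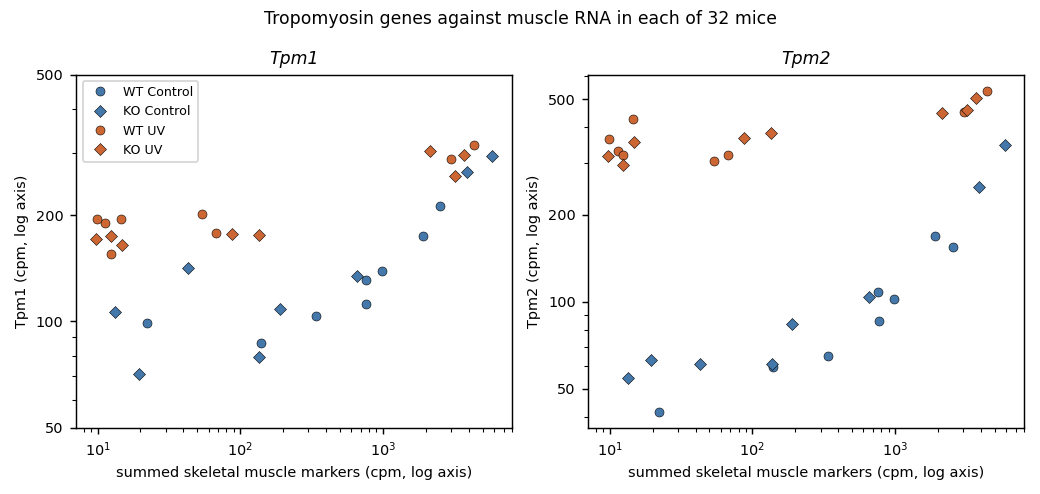
Tpm1 (left) and Tpm2 (right) in cpm (y axes, log) against the summed cpm of 18 skeletal muscle markers (x axes, log) in each of 32 mice. Circles are WT and diamonds KO mice, blue controls and orange UV. At muscle sums under 200 cpm, Tpm2 was 41.8 to 83.7 cpm in 7 controls and 298 to 428 cpm in 11 exposed mice, and controls with more muscle RNA climb towards the UV range. Of the 7 controls only 62F was female.

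Per kilobase of exon, the mix of Tpm1, Tpm2 and Tpm4 moved from Tpm4 towards Tpm2. Tpm3, which is not among the 10 genes and stood at a log2 fold change of 0.54 ± 0.25 in WT mice, is left out of these shares. Tpm4 made up 75.9% ± 8.5 of the 3 genes in WT controls and 63.2% ± 6.9 after UV (SD, n = 8), and 74.9% ± 14.8 and 63.5% ± 5.1 in KO mice. Tpm2 made up 14.9% ± 6.1 and 29.4% ± 5.4 in WT mice, and 16.3% ± 11.3 and 29.3% ± 3.6 in KO mice. Tpm1 held 9.18% ± 2.77 and 7.41% ± 1.72 in WT mice. The KO control range for Tpm2, 8.08% to 37.1%, is widened by 44F and 60F. By level per kilobase, Tpm4 ranked first of the 10 genes in every genotype and treatment, at 169 ± 25 cpm per kb in WT controls and 281 ± 34 after UV (SD). Zyx and Palld were the lowest pair in all 4 combinations, at 2.92 ± 0.85 and 3.45 ± 1.29 cpm per kb in WT controls and 14.2 ± 3.4 and 15.3 ± 1.5 after UV, where they do not differ beyond their spread. Flna moved from rank 5 in WT controls, 25.7 ± 4.9 cpm per kb, to rank 4 after UV, 94.8 ± 12.4. These values divide by the union of annotated exons, and the isoforms used in epidermis were not resolved.

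**Figure D3:**
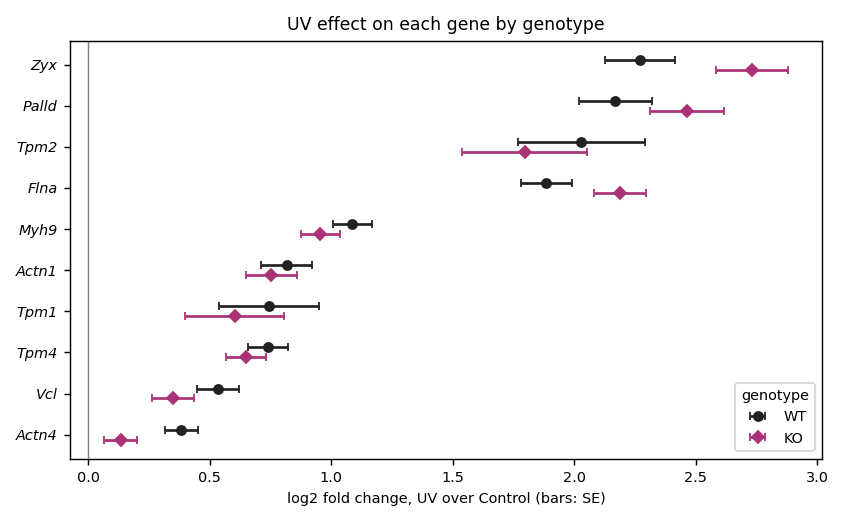
Log2 fold change of UV over control (x axis, bars ± SE) for each gene in WT (circles) and KO mice (diamonds), from the fit of all 32 mice. All 20 values are above 0, from 0.13 for Actn4 in KO mice to 2.73 for Zyx in KO mice.

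Counted by the rule of an adjusted p under 0.05, 10 of 10 genes were higher after UV in WT mice, where 34.5% of all genes tested were higher and 36.5% lower, and 9 of 10 in KO mice, where the shares were 37.3% and 33.5%. The gene without a call in KO mice was Actn4. Without overlap, 7 of 10 were higher in WT mice and 5 of 10 in KO mice, against 21.3% and 18.6% of all genes. Since the UV response was in view when the genes were chosen, nothing is read from these counts. The median log2 fold change of the 10 genes was 0.95 in WT and 0.85 in KO mice, beside -0.01 and 0.09 over all genes. WT and KO controls are separate mice, so both columns stand on their own samples.

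Markers of other cell types moved with the exposure, and their part in the UV differences was not tested. The 8 immune markers summed to 87.6 to 224 cpm in WT controls and 736 to 1648 cpm after UV, and to 56.7 to 179 and 716 to 1710 cpm in KO mice. Most of that sum was S100a8 and S100a9, which stressed keratinocytes also express, and the other members went both ways. In WT mice the medians without and with UV were 9.17 and 74.4 cpm for the macrophage marker Cd68, 6.81 and 17.1 cpm for the myeloid marker Lyz2 and 0.678 and 5.22 cpm for the neutrophil marker Csf3r. They were 20.7 and 10.9 cpm for Ptprc, the pan-leukocyte CD45, 15.6 and 3.85 cpm for the T cell marker Cd3e and 31.4 and 9.82 cpm for the Langerhans cell marker Cd207. The 12 fibroblast markers summed to 261 to 639 cpm in WT controls and 24.0 to 40.5 cpm after UV, and to 173 to 626 and 42.4 to 2412 cpm in KO mice. In WT mice most of it was Postn (medians 358 and 7.09 cpm) and Thy1 (87.4 and 11.9 cpm), beside 5.75 and 1.04 cpm for Col1a1. By edgeR 7 of the 12 were called lower in WT mice and 2 in KO mice, where 36.5% and 33.5% of all genes were. Their median log2 fold change was -2.69 in WT and 0.81 in KO mice. The KO calls and the KO median include mouse 54F, which gave the sum of 2412 cpm. By the median of 8 mice, KO sums were 392 cpm in controls and 49.7 cpm after UV. The KO fold of these markers is not given without 54F, so it does not show an opposite response of the genotypes. Smooth muscle and pericyte markers summed to 78.6 to 140 and 131 to 337 cpm in WT mice, nearly all of it Smtn (medians 72.5 and 183 cpm), and the defining markers Myh11 and Cnn1 had medians of 0 in WT controls. Endothelial markers summed to 1.69 to 6.70 cpm in WT controls and 5.42 to 13.1 cpm after UV, and to 1.76 to 17.3 and 5.66 to 62.7 cpm in KO mice. Of 7 tested, 5 were called higher after UV in each genotype, where 34.5% of all genes were in WT and 37.3% in KO mice. Another 1 of the 7 was called lower in WT mice and 0 in KO mice. The WT median of Vwf went from 2.09 to 0.537 cpm. The 12 keratinocyte markers summed to 76971 to 118640 cpm in controls and 32757 to 64611 cpm after UV, but their members went both ways. In WT mice the medians without and with UV were 27730 and 4980 cpm for Krt1 and 33100 and 7488 cpm for Krt10. Krt5 stood at 4795 and 3431 cpm, while Krt14 stood at 5588 and 16770 cpm and Dsg3 at 180 and 1153 cpm. By edgeR, 2 of the 12 were called higher and 8 lower in WT mice, and 4 and 7 in KO mice, beside the shares of all genes given above. Skeletal muscle sums spanned 22.1 to 2530 cpm in WT controls and 9.90 to 4380 cpm after UV, and 13.3 to 5848 and 9.77 to 3675 cpm in KO mice. In bulk tissue, fewer cells of a type and less RNA per cell cannot be told apart.

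Genotype made little difference to the 10 genes beside UV, and here too the values are a description. Without UV, KO over WT log2 fold changes ran from -0.36 ± 0.15 for Palld through -0.32 ± 0.10 for Flna and -0.29 ± 0.14 for Zyx to 0.26 ± 0.25 for Tpm2. After UV the range was -0.15 ± 0.07 for Actn4 to 0.17 ± 0.14 for Zyx. The difference between the UV effects, KO minus WT, was 0.46 ± 0.20 for Zyx, 0.30 ± 0.14 for Flna and 0.29 ± 0.20 for Palld, and -0.25 ± 0.10 for Actn4. No gene of the 10 was called in any of these contrasts by edgeR, where 0.206% of all genes were called without UV, 3.31% after UV and 0.765% for the difference of effects. At an unadjusted p under 0.05 the counts were 2, 1 and 3 of 10, where 1324, 3121 and 3042 of all 15546 genes passed. Limma-trend called none of the 10, beside 32, 260 and 96 of all genes. DESeq2 called 1 of the 10, Actn4, for the difference of effects, where it called 792 of all genes. For Tpm2 the sign without UV turned with the muscle-rich libraries: 0.26 with all mice and -0.15 ± 0.19 without the mice at 1000 cpm or more. Palld was further from 0 without those mice, at -0.57 ± 0.19 without UV and 0.55 ± 0.26 for the difference of effects.

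The 4 combinations of sex and genotype carried the UV difference in most genes. Zyx was 5.30-fold in WT males, 4.40-fold in WT females, 6.81-fold in KO males and 6.48-fold in KO females, and Flna 4.28-, 3.19-, 4.81- and 4.33-fold. Palld was 5.41-, 3.74-, 7.13- and 4.27-fold, wider in males of both genotypes. Actn1 went the other way in KO mice, with 1.19-fold in males and 2.39-fold in females, beside 1.77- and 1.75-fold in WT mice. Its KO males stood at 139, 147, 147 and 181 cpm in controls and at 160, 176, 183 and 211 cpm after UV, and KO females at 87.3, 97.4, 110 and 123 cpm and at 218, 235, 251 and 292 cpm. The KO females were thus below the KO males without UV and above them after it, with no overlap in either state. Counts called higher were 10, 9, 7 and 8 of 10 in that order, where 29.8%, 30.1%, 30.9% and 34% of all genes were. Tpm1 was not called in females of either genotype, at 1.33- and 1.14-fold, beside 2.10- and 2.03-fold in males, and control females held more muscle RNA than control males (median sums of 1445 and 138 cpm).

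The UV effect was also compared between the sexes, under the same assumption that sex had no part in the selection. No gene of the 10 passed it, and of all genes 0% did (edgeR, 0 of 15546). The largest sizes, females minus males, were -1.07 ± 0.35 for Tpm2 (adjusted p = 0.558), -0.75 ± 0.29 for Tpm1 (0.615), -0.64 ± 0.20 for Palld (0.532) and 0.49 ± 0.15 for Actn1 (0.474). Without the mice at 1000 cpm or more of muscle markers the values were -0.24 ± 0.27 for Tpm2, -0.29 ± 0.19 for Tpm1, -0.75 ± 0.26 for Palld and 0.52 ± 0.20 for Actn1 (adjusted p = 0.967, 0.928, 0.813 and 0.863). At an unadjusted p under 0.05, 5 of the 10 and 1091 of all genes passed, while DESeq2 and limma-trend called none of the 10 and 22 and 2 of all genes. A miss of this threshold does not show that the sexes responded alike.

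Without UV, 5 of the 10 genes differed between the sexes, where 6.86% of all genes did. Palld was 1.57-fold higher in females (log2 fold change 0.65 ± 0.15, adjusted p = 0.0101). Its 8 control females ran from 28.5 to 53.1 cpm (median 37.1) and its 8 control males from 17.6 to 44.8 cpm (median 20.1). Within KO mice the sexes did not overlap, with females at 31.0, 37.1, 37.1 and 39.8 cpm and males at 19.6, 19.7, 20.5 and 22.3 cpm. WT females at 28.5, 35.5, 48.3 and 53.1 cpm overlapped the WT males 43M and 69M.

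Tpm2 and Tpm1 were also higher in control females, at 2.29-fold (1.19 ± 0.25, adjusted p = 0.0067) and 1.81-fold (0.85 ± 0.21, adjusted p = 0.0147). Tpm2 was 54.4 to 347 cpm in females (median 129) and 41.8 to 108 cpm in males (median 61.9), and Tpm1 107 to 293 cpm (median 157) and 70.7 to 142 cpm (median 101). The muscle markers moved with this contrast, with sums of 13.3 to 5848 cpm in control females (median 1445) and 19.6 to 764 cpm in control males (median 138). In the fit without the 9 mice at 1000 cpm or more, which keeps 2 control females per genotype, Tpm2 was 1.29-fold (0.37 ± 0.19, adjusted p = 0.305) and Tpm1 1.29-fold (0.37 ± 0.13, adjusted p = 0.138).

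Flna was 1.26-fold higher in control females (0.34 ± 0.10, adjusted p = 0.0429), with 204 to 289 cpm against 146 to 269 cpm in males. Actn1 was lower in control females, at 0.789-fold (-0.34 ± 0.10, adjusted p = 0.0464), with 87.3 to 135 cpm against 96.8 to 181 cpm. Its sexes stood apart in KO controls, at 87.3 to 123 cpm in females and 139 to 181 cpm in males. They overlapped in WT controls, at 102 to 135 cpm and 96.8 to 151 cpm. Flna and Actn1 both sat close to the threshold: the call of Actn1 held in 13 and that of Flna in 22 of 32 fits with 1 mouse left out. Without the muscle-rich mice the Flna difference was 0.46 ± 0.14 (adjusted p = 0.0853) and that of Actn1 -0.42 ± 0.14 (adjusted p = 0.13), while Palld kept its call at 0.77 ± 0.18 (adjusted p = 0.0387). In that fit 1.53% of all genes were called. Tpm4 (adjusted p = 0.069), Actn4 (0.184), Zyx (0.231), Myh9 (0.452) and Vcl (0.456) did not pass in the fit of all mice.

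After UV none of the 10 genes differed between the sexes by edgeR, DESeq2 or limma-trend, where 3.03% of all genes did by edgeR. The values were within -0.16 ± 0.07 for Actn4 (adjusted p = 0.167, the 1 gene with an unadjusted p under 0.05) and 0.15 ± 0.10 for Actn1 (adjusted p = 0.434). Palld stood at 132 to 170 cpm in females and 135 to 178 cpm in males (log2 fold change 0.01 ± 0.14, adjusted p = 0.983).

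**Figure D4:**
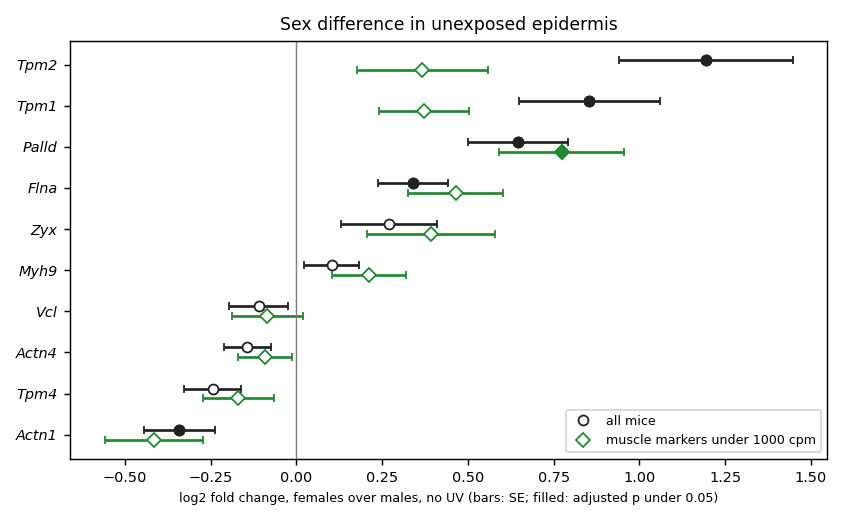
Log2 fold change of females over males without UV (x axis, bars ± SE) for each gene, in all mice (circles) and without the mice at 1000 cpm or more of muscle markers (diamonds). Filled symbols have an adjusted p under 0.05. Palld is filled in both fits, and Tpm2 falls from 1.19 to 0.37.

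The 10 genes were then set beside 6 lists of other actin and adhesion genes, 117 genes in all, of which 115 were tested. In WT mice 65 rose and 31 fell after UV, and in KO mice 65 rose and 24 fell, with median log2 fold changes of 0.51 and 0.58. Of all genes tested, 34.5% were higher and 36.5% lower in WT mice and 37.3% and 33.5% in KO mice, and the counts of each list below stand beside the same shares. These lists too were drawn up with earlier results of these data known and the named genes were picked for their size, so their p-values are not independent evidence of a direction. Actin and its monomer-binding proteins rose most broadly: 14 of 17 rose and 2 fell in both genotypes. Actb, the cytoplasmic β-actin, was 837 to 1271 cpm in WT controls and 1850 to 2404 cpm after UV, a log2 fold change of 0.94 ± 0.11 (adjusted p = 1.45e-08), and reads of actin copies may be shared among near-identical genes. Tmsb10, a thymosin that holds actin monomers, rose by 1.95 ± 0.15 in WT and 2.55 ± 0.15 in KO mice (adjusted p = 3.21e-12 and 2.52e-14). Capg, a capping protein, rose by 1.82 ± 0.16 and 2.23 ± 0.16, while the severing protein gelsolin, Gsn, fell from a median of 1416 to 363 cpm in WT mice (-1.91 ± 0.16, adjusted p = 3.49e-11) and from 1438 to 346 cpm in KO mice.

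Of 24 genes of the Arp2/3 complex, its activators and the formins, 15 rose and 7 fell in WT mice and 13 rose and 6 fell in KO mice. The formin Fmnl2, a filament elongator at the cell front, rose by 3.39 ± 0.30 and 3.49 ± 0.30 (adjusted p = 7.35e-11 and 4.54e-11), and Fmnl3 by 1.33 ± 0.16 and 2.13 ± 0.16. Diaph2, a formin of the diaphanous family, fell by 1.65 ± 0.12 on the log2 scale in WT and by 1.53 ± 0.12 in KO mice.

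Other crosslinkers and filament-binding proteins, 25 tested, were mixed: 11 rose in both genotypes, and 7 fell in WT and 4 in KO mice. Cald1, caldesmon, which restrains myosin on filaments, went from a median of 2.71 to 50.7 cpm in WT mice (4.22 ± 0.28, adjusted p = 2.14e-13) and from 2.75 to 66.8 cpm in KO mice. Fscn1, the bundler of filopodia, rose by 2.96 ± 0.25 and 3.59 ± 0.26, from 7.85 to 27.0 cpm in WT controls to 108 to 182 cpm after UV. Pls1, plastin 1, fell to near absence: WT controls had 31 to 108 reads and WT mice after UV 1 to 8 reads, and KO controls 14 to 65 and KO mice after UV 0 to 2 reads. Cnn3, calponin 3, fell by 1.29 ± 0.19 and by 1.26 ± 0.19 on the log2 scale.

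Other focal adhesion genes, 29 in number, went both ways, with 15 rising in both genotypes and 11 falling in WT and 7 in KO mice. The kinase Src rose from a median of 21.8 to 78.8 cpm in WT mice (1.85 ± 0.11, adjusted p = 3.35e-14) and Pdlim7, a PDZ-LIM protein, by 1.74 ± 0.21. Tln2, talin 2, fell by 2.62 ± 0.43 on the log2 scale in WT and by 2.41 ± 0.43 in KO mice (adjusted p = 5.04e-06 and 1.57e-05). Srf itself rose in both genotypes, from 24.6 to 37.8 cpm in WT controls to 67.3 to 94.9 cpm after UV (1.27 ± 0.09, adjusted p = 6.38e-13), while its coactivator Mrtfb fell by 1.44 ± 0.12 on the log2 scale. Mrtfa was at -0.11 ± 0.06 (adjusted p = 0.123) in WT and fell by 0.16 ± 0.06 in KO mice (adjusted p = 0.0291).

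**Figure D5:**
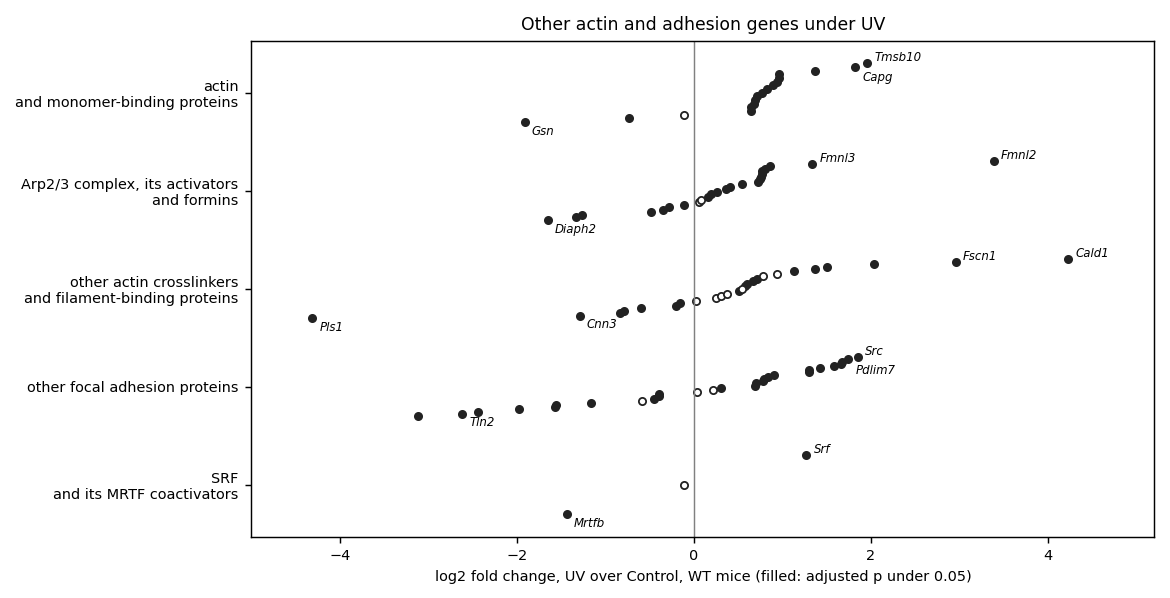
Log2 fold change of UV over control in WT mice (x axis) for 97 other genes in 5 lists (rows, genes spread vertically in order of their value). Filled points have an adjusted p under 0.05 (edgeR) and the genes named in the plot follow the naming rule. The highest value is 4.22 for Cald1, and the lowest point, Pls1, rests on 1 to 8 reads per mouse after UV.

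Genotype differences in these lists were few. None was called without UV or for the difference of UV effects by edgeR. At an unadjusted p under 0.05, 10 and 33 of 115 passed, where 1324 and 3042 of all 15546 genes did. DESeq2 called 0 and 8 of 115, beside 78 and 792 of all genes. Limma-trend called none, beside 32 and 96 of all genes. After UV 3 of 115 were called by edgeR, near the 3.31% of all genes. DESeq2 called 11 and limma-trend 2, beside 1116 and 260 of all genes. Of the 3 called by edgeR, Lpp, the zyxin relative, was 1.59-fold higher in KO mice (0.67 ± 0.17, adjusted p = 0.0307). Tns2, tensin 2, was 2.48-fold higher (1.31 ± 0.32, adjusted p = 0.0273), and Pls1 was lower (adjusted p = 0.0139) at the few reads given above. Without mouse 54F, which had 21.7 cpm of Tns2 and 26.7 cpm of Lpp, the adjusted p of Tns2 was 0.0905 and that of Lpp 0.0846, and that of Pls1 was 0.0321. Without the 9 muscle-rich mice the adjusted p was 0.28 for Lpp, 0.263 for Tns2 and 0.0922 for Pls1.

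Without UV, 20 of the 115 differed between the sexes, where 6.86% of all genes did. Higher in females were, among others, Tmsb10, Tagln2, Svil, Rdx, Pxn, Parvb, Pdlim1 and Pdlim7, and among the lower were Dstn, Cap1, Twf1, Capza1, Capzb, Arpc1a, Arpc2, Wasl, Abi1 and Pls3. The monomer and capping proteins formed much of the lower set, with Dstn, destrin, at 0.774-fold (-0.37 ± 0.06, adjusted p = 0.0012) and Twf1, twinfilin, at 0.747-fold (-0.42 ± 0.09, adjusted p = 0.00658). The adhesion proteins Pxn, paxillin, and Pdlim7 were 1.42-fold (0.51 ± 0.10, adjusted p = 0.00466) and 2.13-fold higher (1.09 ± 0.21, adjusted p = 0.00398). Without the muscle-rich mice 5 remained higher (Tmsb10, Tagln2, Svil, Pxn and Pdlim1) and 1 lower (Dstn), where 1.53% of all genes were called. After UV, Wasl was lower in females (-0.35 ± 0.06, adjusted p = 0.00111) and Lcp1 and Svil were higher (0.71 ± 0.20 and 0.46 ± 0.12, adjusted p = 0.0451 and 0.043). Without the muscle-rich mice the adjusted p of these 3 was 0.0509, 0.2 and 0.315.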

How the data were processed

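Epidermis of 32 mice, separated with ammonium thiocyanate, was sequenced by the authors from stranded mRNA libraries as 100-base single reads. By the submitters' processing notes and the study's methods, reads were trimmed with cutadapt 1.8, aligned with STAR 2.5.3a to the mouse genome (GRCm38 in the labels) and counted per gene with HTSeq 0.9.1, whose strand setting is not given in the sources used here. The deposited values are raw counts per gene, with no normalization. The 5 summary lines were left out of library sizes; reads outside annotated genes were 6.91% to 9.89% of the total with gene reads. Symbols, positions and exon lengths came from GENCODE M21. Myl12b, carried by 2 overlapping loci, was left out. One of the lists and a gene of another are not reported here beyond the totals.

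The filter of 1 cpm or more in any 1 mouse kept 15546 genes, which were scaled by TMM and fitted with a mean per group (8 groups of 4 mice) in edgeR 4.0.16 (R 4.3.3), with quasi-likelihood F tests and Benjamini-Hochberg adjustment over all genes. Printed cpm are TMM-scaled. WT and KO effects average the sexes, and sex effects average the genotypes. Standard errors are the log2 fold change divided by the square root of F. No 2 files were identical. The members and lists were chosen with earlier results of these data known. Named list genes were, per list, up to 2 rises and 2 falls of largest size in WT mice among genes called in both genotypes, averaging 10 counts or more and without overlap between UV and control mice, plus genes called in a genotype or sex contrast; Actb, Mrtfa and genes at marker level were added after their values were seen. Alternatives were RLE scaling, DESeq2 1.42.0, limma-trend 3.58.1 (prior count 1), filterByExpr, no filter, each genotype alone and each mouse left out. The limits of 1000 and 200 cpm of muscle markers were added after seeing the data. The fit was also run on simulated data in which a small set of genes changed, in WT mice after UV only. Such data cannot speak for scaling or error rates under a UV response as broad as the one seen here.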

Additional observations from a re-analysis of the deposited data

Results flagged for a closer look

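Within the 80 sets of 4 mice of 1 gene in 1 group, 7 had a mouse whose gap to the nearest other mouse exceeded Dixon's 95% limit, where chance flags about 1 in 20. Tpm1 was high in the KO male 58M after UV, at 304 cpm against 164 to 175 cpm in the other 3, and in the WT female 59F after UV, at 288 cpm against 190.2 to 201 cpm. Both are libraries with muscle sums over 1000 cpm. The WT male 38M after UV, with a muscle sum of 4380 cpm, was low for Actn4 at 672 cpm (others 880 to 907) and for Tpm4 at 512 cpm (others 649 to 660). The KO control female 69F was high for Actn4 at 707 cpm (others 592 to 606). Tpm2 was high in the KO control male 34M, at 83.7 cpm against 60.7 to 63.1 cpm, and that mouse had the highest muscle sum of its group, 190.2 cpm. Vcl was low in the WT female 57F after UV, at 174 cpm against 206 to 212 cpm.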

How the results depend on the processing

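No paired analysis was possible because replicate names are single animals that the groups do not share. The count of genes of the 10 with a sex difference without UV, 5 with all mice, was 6 under DESeq2 (with Tpm4), 3 with no filter on low counts, 1 without the mice at 1000 cpm or more of muscle markers and 3 to 5 with 1 mouse left out. The count for a sex difference after UV was 0, and 0 to 1 with 1 mouse left out (Actn4, without 58M). For the genotype-by-UV difference it was 0, and 1 under DESeq2. The calls under UV were 10 in WT mice in every fit, and 9 in KO mice in every alternative, with 8 to 10 when 1 mouse was left out, where Tpm1 lost its call without 58M and Actn4 gained one in 6 of the 32 fits. Called list genes ranged from 64 to 66 higher and 27 to 32 lower in WT, and 61 to 66 and 21 to 27 in KO mice. No UV difference of the 10 genes changed sign. The depth of at least 22919428 reads leaves Pls1, at 0 to 8 reads after UV, without a usable fold.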
